A study of Mus musculus with 8 samples.

Results

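The YAP target genes described here are 10 mouse genes chosen by name, Cyr61 (also called Ccn1), Ctgf (also called Ccn2), Amotl2, Ajuba, Lats2, Ptpn14, F3, Crim1, Tgfb2 and Nt5e. All 10 were found among the 55416 genes of the deposited tables, and all 10 passed the filter on low counts that left 14063 genes for testing. Poly-A RNA sequencing measured them in organoids of the mouse small intestine, which are epithelial cultures grown in a gel. The organoids came from C57BL/6 mice aged 4 to 8 weeks and were either irradiated with 6 Gy of X-rays or left without irradiation. Collection at day 4 or day 7 gave 4 groups of 2 libraries: irradiated at day 4, control at day 4, irradiated at day 7 and control at day 7.

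Every group carried 2 homozygous alleles, Rosa26-rtTA Tg/Tg, a doxycycline-responsive activator, and Col1A1-TetO-OSKM Tg/Tg, an inducible cassette of reprogramming factors. The labels state neither that the cassette was switched on nor the event from which days were counted. They also do not say whether the libraries of a group came from separate mice or cultures, so p-values measure the spread between these libraries, which may be technical. The organoids hold epithelium without the stroma, vessels and immune cells of the intestine. In such bulk samples, fewer cells of a type and less RNA per cell cannot be told apart.

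YAP and its relative TAZ are coactivators that bind TEAD transcription factors. The Hippo kinase cascade, which ends in the LATS kinases, phosphorylates them and keeps them out of the nucleus. In the intestine, YAP is best known for its role in regrowth of the crypt epithelium after injury, radiation included. Several of its target genes encode proteins that restrain YAP itself, so that the pathway holds feedback loops.

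At day 4, 6 of the 10 genes were higher in irradiated organoids (Ptpn14, Tgfb2, Ctgf, Lats2, F3 and Ajuba), 1 was lower (Crim1) and 3 did not pass the test (Nt5e, Amotl2 and Cyr61). Of all genes tested, 20.0% were higher and 16.5% lower at day 4, 36.5% in either direction. At day 7 F3 alone was higher among the 10 genes and none was lower, against 4.70% and 3.95% of all genes tested, 8.65% together. A gene was called when its p from edgeR's quasi-likelihood test, adjusted over all genes tested by the Benjamini-Hochberg method, was under 0.05. The median log2 fold change of the 10 genes was 1.71 at day 4 and 0.75 at day 7, where that of all genes tested was 0.00287 and 0.00111. The 10 genes were chosen with earlier results of these data known. Their excess over all genes is therefore a description and not a test. Tgfb2 passed the filter only through the irradiated libraries of day 4, so its difference at that day is partly built into the choice.

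Total expected counts per library ran between 7541764 and 16054269. Mitochondrial transcripts took 20.3% and 27.6% of the counts in irradiated and 20.7% and 16.2% in control libraries of day 4, and 12.9% to 16.1% at day 7. At day 4, edgeR called 2808 genes higher and 2322 lower, whereas a limma fit of the deposited TPM, as log2(TPM + 1), called 1074 higher and 1612 lower. At day 7 these splits were 661 and 555 with edgeR, and 268 and 60 with TPM. The TPM fit also shifted the median log2 fold change of all genes to -0.17 at day 4 and 0.12 at day 7. All 9 epithelial markers were detected in each library, with summed levels of 7304 and 6241 CPM in irradiated and 4153 and 4184 CPM in control organoids at day 4. CPM is the count of a gene relative to the total of its library, here with TMM scaling, and is not corrected for gene length. Of the 26 markers of mesenchymal, endothelial and immune cells, Cdh5, Kdr and Adgre1 were at 0 in all 8 libraries. Ptprc had 6 counts in all, Col3a1 2 and Dcn 1. Other markers were above 0 in all 8 libraries. The highest summed count was that of Vim, at 884, followed by Itgam at 277, Cd68 at 181, Egfl7 at 142 and Pdgfrb at 131.

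Promoter sequences are shown for the 6 genes whose window held a motif of a factor tied to YAP. A promoter was found in the RefSeq table for 9 of the 10 genes (build GRCm38.p6), and each sequence is the 250 bases before the gene's start, read 5′ to 3′ in the direction of the gene. Capitals mark the core TEAD motif, GGAATG or its reverse CATTCC, and the AP-1 motif, TGANTCA in either direction. AP-1 is the dimer of FOS and JUN family proteins, which is known to share many enhancers with YAP and TEAD.

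Ptpn14 (chr1:189728018-189728267, plus strand): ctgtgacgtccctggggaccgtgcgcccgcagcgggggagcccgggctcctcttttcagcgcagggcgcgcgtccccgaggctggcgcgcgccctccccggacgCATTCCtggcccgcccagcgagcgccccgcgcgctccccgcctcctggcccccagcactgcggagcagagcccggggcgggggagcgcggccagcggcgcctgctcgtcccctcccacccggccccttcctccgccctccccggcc
Amotl2 (chr9:102717554-102717803, plus strand): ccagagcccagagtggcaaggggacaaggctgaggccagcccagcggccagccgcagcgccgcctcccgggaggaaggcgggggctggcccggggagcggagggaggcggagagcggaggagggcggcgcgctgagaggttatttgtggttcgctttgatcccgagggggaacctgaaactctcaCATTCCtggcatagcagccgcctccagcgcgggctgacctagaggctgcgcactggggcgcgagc
Ajuba (chr14:54577662-54577911, minus strand): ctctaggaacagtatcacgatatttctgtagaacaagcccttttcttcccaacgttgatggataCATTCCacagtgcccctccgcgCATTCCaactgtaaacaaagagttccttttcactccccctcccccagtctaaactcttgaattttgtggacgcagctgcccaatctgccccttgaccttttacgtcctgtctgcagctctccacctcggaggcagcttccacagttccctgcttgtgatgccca
Cyr61 (chr3:145649986-145650235, minus strand): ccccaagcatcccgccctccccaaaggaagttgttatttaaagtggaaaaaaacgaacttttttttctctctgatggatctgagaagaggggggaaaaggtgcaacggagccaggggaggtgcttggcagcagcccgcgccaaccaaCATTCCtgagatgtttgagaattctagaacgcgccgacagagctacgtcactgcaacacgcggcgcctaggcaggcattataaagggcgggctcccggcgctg
Crim1 (chr17:78199998-78200247, plus strand): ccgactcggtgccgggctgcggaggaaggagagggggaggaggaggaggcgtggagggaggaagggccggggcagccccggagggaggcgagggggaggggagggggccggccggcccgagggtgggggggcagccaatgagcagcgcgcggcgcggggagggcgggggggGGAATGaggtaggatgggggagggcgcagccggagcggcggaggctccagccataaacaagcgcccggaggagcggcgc
F3 (chr3:121723287-121723536, plus strand): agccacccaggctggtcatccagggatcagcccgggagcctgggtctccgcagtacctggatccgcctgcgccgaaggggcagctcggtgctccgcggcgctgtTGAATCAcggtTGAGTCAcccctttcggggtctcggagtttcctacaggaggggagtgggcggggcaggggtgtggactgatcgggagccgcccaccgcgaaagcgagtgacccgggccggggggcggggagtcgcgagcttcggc

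A TEAD match lay 146 bases before the start of Ptpn14, 65 before that of Amotl2, 103 before that of Cyr61 and 79 before that of Crim1. Ajuba had 2 TEAD matches, which began 186 and 164 bases before its start. F3 had none and was the only one of the 9 genes with an AP-1 match, of which it held 2, at 146 and 135 bases before the start. In all, 5 of 9 genes held a TEAD match, a motif found in 12.6% of the 32851 windows of the same length in the table. The AP-1 motif was found in 6.75% of them, and the CArG box, the motif of serum response factor, in 1.47% and in none of the 9 genes. No match overlapped another on either strand. These are counts of letters in short windows and do not show binding. The genes with a TEAD match did not share a direction, since they include Ptpn14 and Ajuba, which were higher after irradiation at day 4, Crim1, which was lower, and Cyr61 and Amotl2, which did not pass the test.

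The regulators of YAP were examined first. Lats2 encodes a kinase that phosphorylates YAP and TAZ. It had 9.25 and 8.49 CPM in irradiated organoids at day 4, against 1.36 and 2.93 CPM in controls. At day 7 it had 3.88 and 3.25 CPM in irradiated and 3.01 and 2.58 CPM in control organoids. The irradiated libraries of day 4 stood far above the other 6, while those of day 7 lay just above their controls. The log2 fold change was 2.005 ± 0.33 (SE) at day 4, with an edgeR adjusted p of 0.00113, and 0.36 ± 0.36 at day 7, with 0.575. Without replicate 2 of the day 4 controls, the day 4 value was 2.68.

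Ptpn14 encodes a tyrosine phosphatase that binds YAP and restrains it. Its level was 20.4 and 10.4 CPM in irradiated organoids at day 4, against 1.70 and 1.34 CPM in controls. At day 7 the values were 8.06 and 10.1 CPM after irradiation, against 5.69 and 5.15 CPM without. The groups did not overlap at either day, and the day 4 controls were the lowest of the 4 groups. The log2 fold change was 3.35 ± 0.35 at day 4 (edgeR adjusted p = 8.76e-05) and 0.74 ± 0.32 at day 7 (edgeR adjusted p = 0.174). At day 7 Ptpn14 was called, with an edgeR adjusted p of 0.038, when replicate 2 of the irradiated day 4 group was left out of the fit. Ptpn14 had the smallest p of the 10 genes at day 4.

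Ajuba encodes a LIM-domain protein that binds the LATS kinases and holds back their activity. It reached 20.6 and 9.15 CPM in irradiated organoids at day 4, against 4.35 and 6.03 CPM in controls, and 12.1 and 11.8 CPM in irradiated organoids at day 7, against 6.12 and 7.91 CPM in controls. Both pairs of groups were separate, but replicate 1 of the irradiated day 4 group lay 2.26-fold above replicate 2. Irradiation changed it by 1.504 ± 0.36 on the log2 scale at day 4 (edgeR adjusted p = 0.0125), and the day 7 value was 0.76 ± 0.37 (edgeR adjusted p = 0.234). Without replicate 1 of the day 4 controls, the day 4 call was lost, with an edgeR adjusted p of 0.0793, and without replicate 1 of the irradiated group the log2 fold change was 0.78. The day 7 difference was called when either irradiated library of day 4 was left out, with an edgeR adjusted p as low as 0.026.

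Amotl2 encodes an angiomotin-like scaffold of cell junctions that binds YAP. Its levels were 11.1 and 7.19 CPM in irradiated organoids at day 4, against 5.96 and 10.6 CPM in controls, and the groups overlapped. At day 7 it had 10.8 and 11.9 CPM after irradiation and 9.98 and 10.7 CPM in controls, a gap smaller than that between the replicates of day 4. Fitted log2 fold changes were 0.13 ± 0.28 at day 4 and 0.14 ± 0.28 at day 7, with edgeR adjusted p values of 0.76 and 0.811.

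Cyr61 and Ctgf encode secreted matricellular proteins of the CCN family, which bind integrins, and are the targets most often used as readouts of YAP activity. For Cyr61, 44.8 and 39.2 CPM were measured in irradiated organoids at day 4, against 31.1 and 70.7 CPM in controls. At day 7 it had 51.0 and 54.4 CPM in irradiated and 55.9 and 59.1 CPM in control organoids. The day 4 controls thus held both the lowest and the highest of the 8 values, 2.27-fold apart, and the irradiated libraries lay between them. For Cyr61 the log2 fold change was -0.29 ± 0.37 at day 4 (edgeR adjusted p = 0.59) and -0.13 ± 0.37 at day 7 (edgeR adjusted p = 0.872). Its sign at day 4 depended on 1 library: without replicate 2 of the day 4 controls it was 0.43 and without replicate 1 it was -0.77, with edgeR adjusted p values of 0.0378 and 0.0012.

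Ctgf was far rarer, with 69 and 16 counts in irradiated organoids at day 4, against 4 and 14 in controls. These were 7.42 and 1.74 CPM in irradiated and 0.34 and 0.85 CPM in control organoids. At day 7 the levels were 2.04 and 3.49 CPM after irradiation, against 1.18 and 2.02 CPM in controls. The groups did not overlap at either day, though at day 7 the lower irradiated library was just above the higher control library. For Ctgf the log2 fold change was 2.85 ± 0.74 at day 4 (edgeR adjusted p = 0.0157) and 0.76 ± 0.71 at day 7 (edgeR adjusted p = 0.553). The summed counts at day 4, 85 in irradiated and 18 in control organoids, gave a ratio of 7.19 with a 95% exact binomial interval of 4.29 to 12.7, which covers counting error only. Without replicate 1 of the irradiated group, or without either control library, the day 4 call was lost, with an edgeR adjusted p of up to 0.127, and over the libraries left out the log2 fold change ran between 1.45 and 3.69. The other CCN family genes on the list, Nov and Wisp1 to Wisp3, were all under the filter.

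F3 encodes tissue factor, the surface receptor that starts blood coagulation when it binds factor VII. It had 91.9 and 64.5 CPM in irradiated organoids at day 4, against 15.9 and 25.1 CPM in controls, and 60.8 and 60.8 CPM in irradiated organoids at day 7, against 12.6 and 12.3 CPM in controls. Each irradiated library was above each control library at both days. The log2 fold change was 1.92 ± 0.22 at day 4 (edgeR adjusted p = 0.000473) and 2.29 ± 0.24 at day 7 (edgeR adjusted p = 0.00269). Leaving out any 1 of the 8 libraries kept both calls, with log2 fold changes of 1.62 to 2.29 at day 4 and 2.26 to 2.34 at day 7.

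Nt5e encodes CD73, an enzyme on the cell surface that releases adenosine from AMP. Its levels were 2.69 and 2.18 CPM in irradiated organoids at day 4, against 2.04 and 1.04 CPM in controls. At day 7 they were 1.53 and 1.44 CPM after irradiation, against 0.86 and 0.74 CPM in controls. The groups did not overlap at either day, and neither difference passed the test. The log2 fold changes were 0.68 ± 0.44 (edgeR adjusted p = 0.256) and 0.90 ± 0.51 (edgeR adjusted p = 0.307). With 2 libraries a group, such a separation often arises without a true difference. Its share over all genes was not counted, here or for the other genes described. Summed counts were few, 45 in irradiated and 41 in control organoids at day 4 and 27 in irradiated and 16 in control organoids at day 7, and the ratios of 1.67 and 1.88 had 95% intervals of 1.07 to 2.62 and 0.978 to 3.74.

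Crim1 encodes a transmembrane protein with cysteine-rich repeats that binds bone morphogenetic proteins. It was the only one of the 10 genes called lower, with 46.2 and 38.7 CPM in irradiated organoids at day 4, against 60.6 and 58.8 CPM in controls. At day 7 it had 36.0 and 34.4 CPM in irradiated organoids, against 37.0 and 40.7 CPM in controls, so that the controls of day 7 lay below both groups' means of day 4. Crim1 fell by 0.49 ± 0.11 on the log2 scale at day 4 (edgeR adjusted p = 0.00616), and the log2 fold change at day 7 was -0.14 ± 0.12 (edgeR adjusted p = 0.478). In TPM the day 7 levels ran the other way, 12.2 after irradiation against 9.50 in controls on average, and that difference too did not pass the test.

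Tgfb2 encodes a secreted ligand of the TGF-beta receptors. It was the rarest of the 10, with 1.29 and 2.72 CPM in irradiated organoids at day 4, against 0.34 and 0.061 CPM in controls. At day 7 it had 0.61 and 0.36 CPM in irradiated organoids, against 0.21 and 0.18 CPM in controls. The groups did not overlap at either day, and the day 4 irradiated libraries were the highest. The 37 counts after irradiation and 5 in controls at day 4 gave a ratio of 11.3, with a 95% exact interval of 4.42 to 36.7. For Tgfb2 the log2 fold change was 3.38 ± 0.76 at day 4 (edgeR adjusted p = 0.00624) and 1.27 ± 0.96 at day 7 (edgeR adjusted p = 0.447), where the counts were 9 in irradiated and 4 in control organoids. The day 4 call was lost without replicate 2 of the irradiated or of the control group, with an edgeR adjusted p of up to 0.0599, and a log2 fold change as low as 2.51. Without replicate 1 of the control group it was 4.77.

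**Figure D1:**
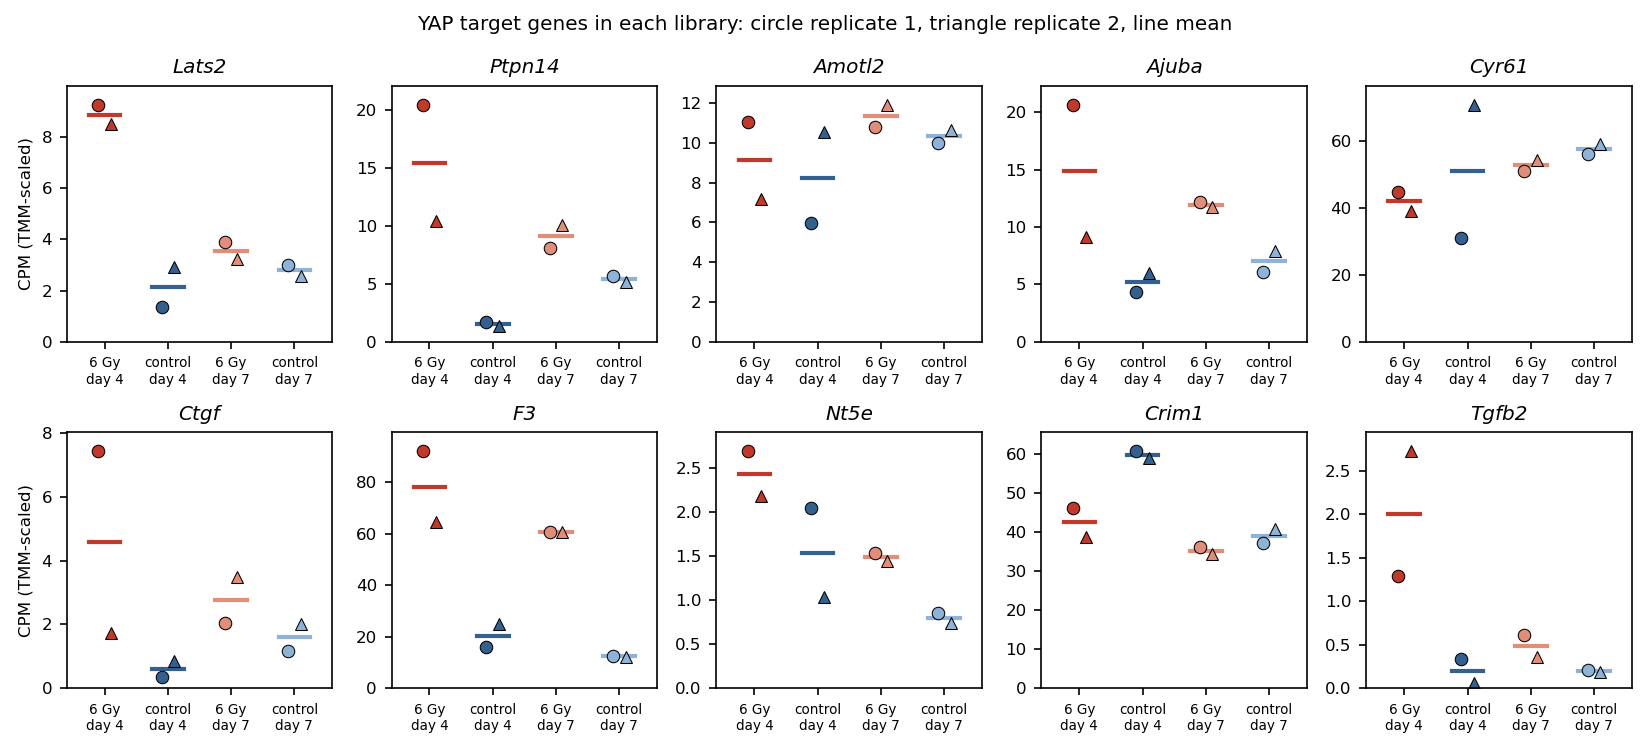
Level of each YAP target gene in CPM (counts scaled to library size with TMM, axis from 0) in the 2 libraries of each group, with a line at the group mean. Irradiated and control libraries of Ptpn14, Lats2 and F3 were wide apart at day 4, those of F3 also at day 7, while the day 4 controls of Cyr61 held its lowest and highest values.

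The spread between replicates of these genes was wider at day 4. The higher replicate was a median of 1.48-fold above the lower over the 10 genes in irradiated and 1.87-fold in control organoids of day 4, with a maximum of 5.59-fold for Tgfb2 in controls. At day 7 the medians were 1.08 in irradiated and 1.14 in control organoids. In the irradiated day 4 group, replicate 1 was the higher for 9 of the 10 genes, with Tgfb2 as the exception. The mitochondrial share was 20.3% in that library and 27.6% in replicate 2, and the part of this share in the gap was not tested. Of the 7 calls of day 4, those of Lats2, Ptpn14, F3 and Crim1 were kept whichever library was left out. The fit of log2(TPM + 1) tested 8 of the 10 genes, because Tgfb2 and Nt5e were under its filter. It called Lats2, Ptpn14 and F3 at day 4, with log2 fold changes of 1.05, 1.27 and 1.73. With log2(TPM + 0.1) these were 1.705, 2.351 and 1.785, since the added 1 shrinks changes at low TPM.

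**Figure D2:**
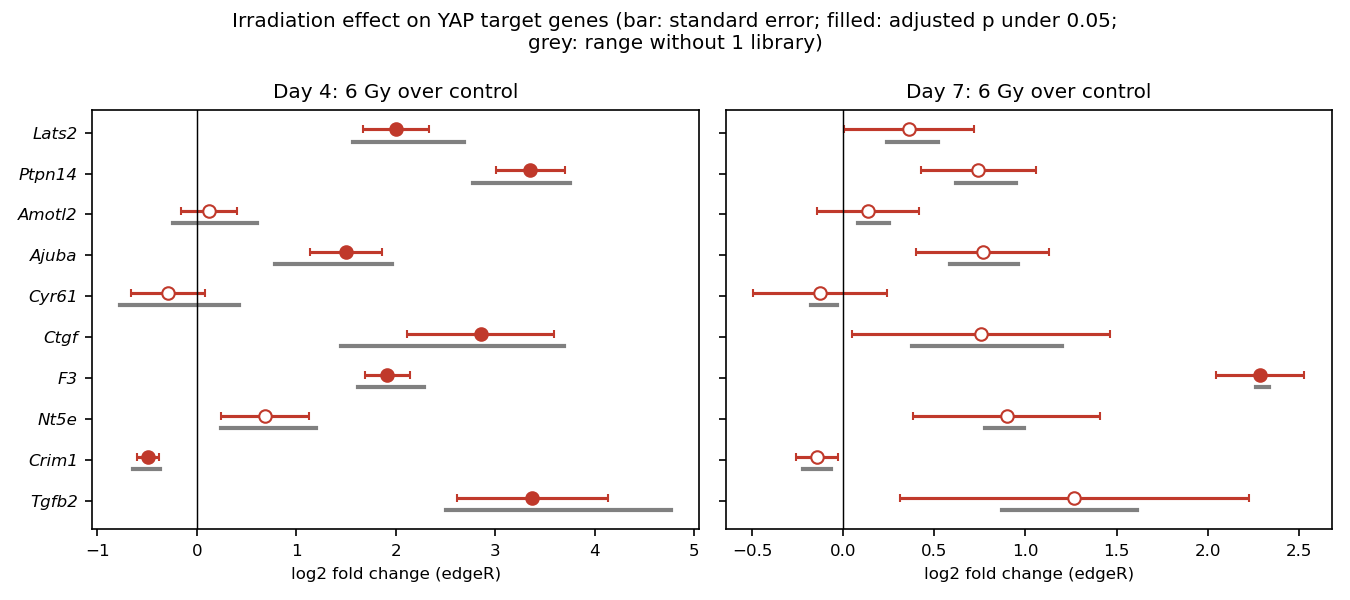
Log2 fold change of irradiated over control organoids for each YAP target gene at day 4 and day 7 from edgeR, with the standard error as a bar and the range over fits that left out 1 library in grey. Filled points had an adjusted p under 0.05: 7 of 10 genes at day 4 and F3 at day 7, and the grey range of Cyr61 at day 4 spanned -0.77 to 0.43.

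Expression per transcript length was compared in TPM. In irradiated organoids F3 was the highest of the 10 genes, with a mean of 63.5 TPM at day 4 and 60.8 TPM at day 7, followed by Cyr61 with 24.8 and 40.6 TPM and Crim1 with 10.3 and 12.2 TPM. In controls Cyr61 was first, with 34.9 TPM at day 4 and 40.0 TPM at day 7, and F3 next, with 18.4 and 12.1 TPM. The ranges of Cyr61 and F3 overlapped in the day 4 controls and were separate in the other 3 groups. The middle of the order held Ajuba, with means of 6.99 and 2.66 TPM in irradiated and control organoids at day 4, and Amotl2, with 3.53 TPM in irradiated and 3.45 TPM in control organoids. In irradiated organoids of day 4, Lats2, Ptpn14 and Ctgf, at 2.63, 2.46 and 2.41 TPM, each overlapped with the next in the order. Tgfb2 was last in all 4 groups, at 0.435 TPM in irradiated and 0.075 TPM in control organoids of day 4, and at 0.17 TPM in irradiated and 0.11 TPM in control organoids of day 7.

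For some of these genes, the transcript length implied by the deposited tables (count over TPM) differed between libraries. The longest over the shortest was 3.06 for Tgfb2, 2.50 for Lats2, 1.91 for Ptpn14, 1.61 for Amotl2 and 1.49 for Crim1. For Cyr61, Ctgf and Nt5e it was at most 1.08. The median was 1.13 over 9530 genes that passed a floor on counts and TPM in every library. Tgfb2, Lats2, Ptpn14, Ctgf and Nt5e were under that floor, so their ratios are not like for like with this median. The day 7 controls of Tgfb2, for example, had 2 counts each, with 0.07 and 0.15 TPM. Where the implied length differs, changes in CPM and in TPM differ in size.

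The effect of irradiation was then compared between the days, as the effect at day 7 less that at day 4. Of all genes tested, 10.1% differed in either direction, and among the 10 genes Ptpn14 did. Its effect was smaller at day 7 by a log2 difference of -2.61 ± 0.48 (edgeR adjusted p = 0.0111). The call was lost without replicate 2 of the day 4 controls or without any 1 of 3 day 7 libraries, replicate 1 of the irradiated and either control, with an edgeR adjusted p of up to 0.0648. Lats2 had -1.64 ± 0.49 (edgeR adjusted p = 0.0581), and Tgfb2 and Ctgf had -2.11 ± 1.34 and -2.10 ± 1.03. Calls appeared for Lats2 and Cyr61 when replicate 2 or replicate 1 of the day 4 controls, in that order, was left out, for Ctgf and Ajuba without replicate 2 of the irradiated day 4 group, and for Crim1 without its replicate 1. F3 had 0.37 ± 0.33 (edgeR adjusted p = 0.516), so a call at both days goes with no detected difference between them.

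Between the days within a treatment, 33.0% of all genes tested differed in irradiated organoids and 2.72% in controls. In irradiated organoids Lats2 was lower at day 7, at 3.56 ± 0.45 CPM against 8.87 ± 0.53 CPM at day 4 (SD, n = 2 each). The log2 fold change was -1.31 ± 0.33 (edgeR adjusted p = 0.0127). Without either irradiated library of day 7 the call was lost, with an edgeR adjusted p of up to 0.11. In controls Ptpn14 was higher at day 7, at 5.42 ± 0.38 CPM against 1.52 ± 0.26 CPM at day 4, with a log2 fold change of 1.84 ± 0.37 (edgeR adjusted p = 0.0339). Crim1 was lower in controls at day 7, at 38.9 ± 2.6 CPM against 59.7 ± 1.2 CPM at day 4, with a log2 fold change of -0.62 ± 0.11 (edgeR adjusted p = 0.0214). Leaving out single libraries ended both of these calls in controls, with an edgeR adjusted p of up to 0.237 for Ptpn14 and 0.245 for Crim1. These comparisons share libraries with those of irradiation, so the low Ptpn14 and the high Crim1 of the day 4 controls enter both.

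Of the 13 other YAP target genes on the list, 9 were tested. At day 4, 5 were higher and 1 lower, the median log2 fold change being 0.61, and at day 7 none was called. Of all genes tested, 36.5% were called at day 4 and 8.65% at day 7. Myof, which encodes the membrane protein myoferlin, had 56.1 ± 32.5 CPM in irradiated organoids at day 4 and 9.60 ± 1.25 CPM in controls (SD, n = 2 each), a log2 fold change of 2.56 ± 0.42 (edgeR adjusted p = 0.00527). Fjx1 rose at day 4, with 27 counts in irradiated and 4 in control organoids, a ratio of 10.3 (95% interval 3.58 to 40.4). Fjx1 reached the level of the filter in no library but those 2 irradiated ones, so this difference is partly built into the choice of genes tested. Nuak2, a kinase of the AMPK family, rose with a log2 fold change of 1.05 ± 0.17, and Dock5, a Rac activator, with 0.48 ± 0.13. Arhgef17 fell by 1.55 ± 0.23 on the log2 scale. Without replicate 2 of the day 4 controls the calls of Myof and Fjx1 were lost, and that of Dock5 without replicate 1 of the controls or replicate 2 of the irradiated group. Without replicate 1 of the irradiated group the log2 fold change of Myof was 1.78, and that of Fjx1, 3.23 in the full fit, ran between 2.45 and 4.31 without replicate 2 and without replicate 1 of the controls. The widely used targets Ankrd1 and Axl were under the filter, with 7 and 30 counts in irradiated organoids at day 4, against 2 and 11 in controls.

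All 26 genes of the Hippo pathway and its cofactors were tested, and the median log2 fold change was -0.03 at day 4 and -0.07 at day 7. At day 4, 4 were higher and 4 lower, but 3 and 0 in a fit of only the groups compared, 3 and 2 with DESeq2, and at most 1 in all in the TPM fits. Of all genes, 36.5% were called at day 4 in the main fit, 23.3% with only the groups compared and 27.1% with DESeq2. At day 7 the main fit called 8.65% of all genes. Amotl1, a relative of Amotl2, had 4.75 ± 3.02 CPM in irradiated organoids and 0.65 ± 0.20 CPM in controls, a log2 fold change of 2.81 ± 0.51 (edgeR adjusted p = 0.002), which was 1.94 without replicate 1 of the irradiated group. Wwc1, which encodes the upstream scaffold KIBRA, rose by 0.60 ± 0.12 and Taok3, an upstream kinase, by 0.46 ± 0.08 on the log2 scale. Yap1 itself had 84.7 ± 1.6 CPM in irradiated organoids at day 4, against 102.9 ± 5.3 CPM in controls. It fell by 0.28 ± 0.08 on the log2 scale (edgeR adjusted p = 0.0215), and the call was lost without replicate 2 of the day 4 controls. The Yap1 call was also lost with DESeq2, with only the groups compared and in every TPM fit. At day 7 Yap1 had 99.4 ± 1.9 CPM in irradiated and 103.1 ± 5.6 CPM in control organoids (edgeR adjusted p = 0.738). Wwtr1, which encodes TAZ, had a log2 fold change of -0.62 ± 0.25 at day 4 (edgeR adjusted p = 0.0759).

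None of the 4 TEAD genes passed the test at either day, with log2 fold changes at day 4 of -0.27 for Tead1, -0.36 for Tead2, -0.34 for Tead3 and 0.75 for Tead4. Tead1 was the most abundant of them in CPM, at 61.2 ± 7.2 in irradiated organoids and 73.4 ± 16.6 in controls of day 4. Mob1a, a LATS cofactor, fell by 0.35 ± 0.07 at day 4, a call that was lost with only the groups compared and in every TPM fit. Limd1 and Wtip, which encode LIM proteins of the Ajuba family, had log2 fold changes of 0.00 and -0.32 at day 4 and did not pass the test. At day 7, Lats1 fell by 0.36 ± 0.08 and the upstream kinase Taok1 by 0.37 ± 0.07, with edgeR adjusted p values of 0.018 and 0.0139, and Lats2 was not called. Leaving out any 1 of the 4 libraries of day 7 ended both calls, whereas a fit of only the groups compared called 10 Hippo genes at day 7, with 36.3% of all genes.

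**Figure D3:**
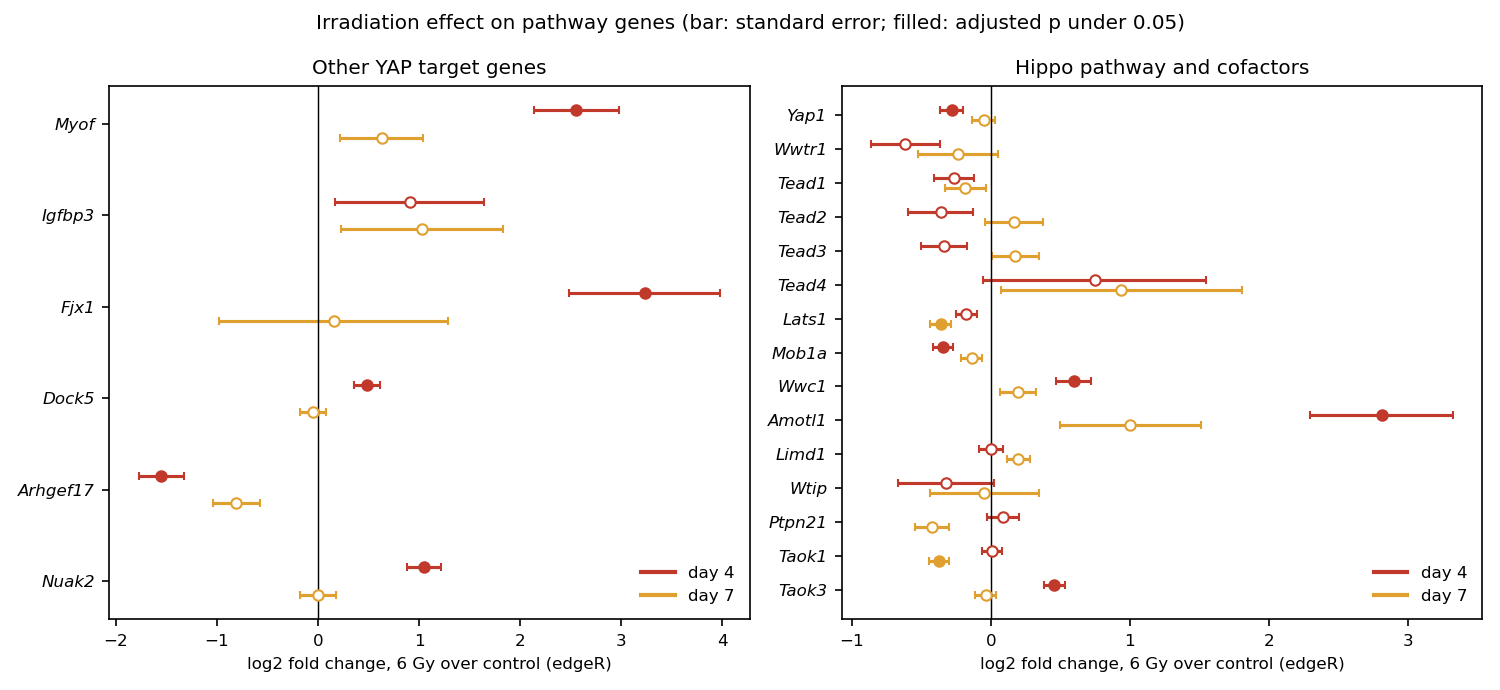
Log2 fold change of irradiated over control organoids from edgeR, with its standard error, for the other YAP target genes and for Hippo pathway genes named by the rule on named genes, at day 4 and day 7. Filled points had an adjusted p under 0.05, and among the Hippo genes drawn Amotl1 stood furthest from 0 at day 4, at 2.81.

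The partners of 3 of the genes were described from lists of the pathways they belong to. For Tgfb2, 15 of 18 other genes of TGF-beta ligands, receptors and activators were tested, of which 5 were higher and 1 lower at day 4 and none was called at day 7. Among all genes tested, 36.5% were called at day 4 and 8.65% at day 7. Tgfbr3, the coreceptor that presents TGF-beta ligands, rose by 2.56 ± 0.38 and Thbs1, thrombospondin, an activator of latent TGF-beta, by 2.45 ± 0.30. The subunits of the TGF-beta activating integrin, Itgb6 and Itgav, rose by 0.77 ± 0.14 and 0.61 ± 0.11, while Ltbp4, a latency binding protein, fell by 2.20 ± 0.56, all on the log2 scale. The median over the 15 was -0.04 at day 4. Leaving out replicate 2 of the irradiated or of the control organoids of day 4 ended the call of Ltbp4, and without replicate 1 of the irradiated organoids its log2 fold change was -3.18. Ltbp4 reached the level of the filter in both day 4 controls, where it was high, and in 1 other library.

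For Nt5e, 11 of 16 other genes of extracellular adenosine were tested, of which 4 were higher and 2 lower at day 4 and 2 higher at day 7. The shares of all genes called were 36.5% at day 4 and 8.65% at day 7. Ada, the enzyme that deaminates adenosine, rose by 1.36 ± 0.21 at day 4 and 1.34 ± 0.20 at day 7, and Pnp, the next enzyme of purine breakdown, by 0.59 ± 0.09 and 0.62 ± 0.09. Enpp3, an ectonucleotidase, had 60.6 ± 34.4 CPM in irradiated organoids at day 4, against 2.21 ± 0.37 CPM in controls (edgeR adjusted p = 0.000525). Entpd8, which removes phosphates from ATP outside the cell, rose by 1.44 ± 0.21, and the nucleoside transporter Slc29a1 fell by 0.46 ± 0.13 on the log2 scale, both at day 4. Leaving out replicate 1 of the day 7 controls ended the day 7 calls of Ada and Pnp, as did replicate 2 of the irradiated group for Ada and replicate 1 of it for Pnp. At day 4, the call of Slc29a1 was lost without replicate 2 of either group, and Enpp3 had a log2 fold change of 4.79, or 4.04 without replicate 2 of the irradiated group.

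For F3, 8 of 12 other genes of tissue factor, its inhibitors and the linked proteases and receptors were tested, of which 4 were higher and 3 lower at day 4 and 3 higher at day 7. Calls over all genes tested made up 36.5% at day 4 and 8.65% at day 7. Plat, tissue plasminogen activator, had 38.7 ± 13.5 CPM in irradiated organoids at day 4 and 3.53 ± 1.88 CPM in controls, and 15.6 ± 0.9 CPM in irradiated organoids at day 7, against 3.48 ± 0.67 CPM in controls (edgeR adjusted p = 0.000344 and 0.0202). Plaur, the urokinase receptor, rose by 1.44 ± 0.38 at day 4 and 1.45 ± 0.37 at day 7 on the log2 scale. F10, coagulation factor X, had 44 counts in irradiated organoids at day 4 and 3 in controls, a ratio of 22.3 (95% interval 7.16 to 112). At day 7 it had 22 counts in irradiated and 0 in control organoids, at least 8.18-fold higher over a floor of 3 counts for the control group. The fitted log2 fold change of F10 at day 4, 4.30, was 7.63 without replicate 1 and 3.15 without replicate 2 of the day 4 controls. F10 reached the level of the filter in the 4 irradiated libraries alone, so its differences are partly built into the choice of genes tested. Plau was also higher at day 4, with 37 counts in irradiated and 4 in control organoids, a ratio of 14.1 (95% interval 5.06 to 54.4). Plau too reached that level in irradiated libraries alone, so the same limit holds. Its log2 fold change at day 4, 3.66 in the full fit, ran between 2.50 and 7.38 over the libraries left out. Tfpi2, an inhibitor of the tissue factor complex, fell by 1.303 ± 0.22 at day 4 on the log2 scale. Leaving out any 1 of the 4 libraries of day 7 ended the 3 calls of that day, and leaving out replicate 1 of the irradiated or of the control organoids of day 4 ended the call of Plaur at day 4, with a log2 fold change as low as 0.84. Without replicate 1 of the day 4 controls, the log2 fold change of Plat at day 4 was 4.11 in place of 3.51.

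Immediate-early genes, several of which encode AP-1 subunits, were examined because Cyr61 is one of them and because F3 held AP-1 matches. Of 18 listed, 17 were tested. At day 4, 2 were higher and 2 lower, at day 7 2 were higher, and the medians were -0.10 and 0.21. Of all genes tested, 36.5% were called at day 4 and 8.65% at day 7. Fosl1, an AP-1 subunit, had 75 counts in irradiated organoids at day 4 and 1 in controls, a ratio of 114 (95% interval 19.9 to 4569), and 31 in irradiated and 3 in control organoids at day 7, a ratio of 11.5 (3.59 to 58.9). Its fitted log2 fold change at day 4, 6.43, was 8.31 without replicate 2 and 5.78 without replicate 1 of the day 4 controls. Fosl1 too reached the level of the filter in the 4 irradiated libraries alone. The other AP-1 subunits listed, Fos, Fosb, Fosl2, Jun, Junb and Jund, were not called at either day. Any part of AP-1 in the level of F3 was not tested. Klf6, a zinc finger factor, rose by 1.09 ± 0.09 at day 4, whereas Egr2 and Ier2 fell by 1.46 ± 0.25 and 0.68 ± 0.19 on the log2 scale. At day 7, leaving out any 1 library of that day ended both calls, those of Fosl1 and Ier3, and that of Ier2 at day 4 was lost without either irradiated library or without replicate 2 of the controls.

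Markers of other cell types were set beside these results. Summed mesenchymal markers were 20.3 and 22.9 CPM in irradiated organoids at day 4, against 17.2 and 17.9 CPM in controls, and 5.31 and 5.17 CPM in irradiated organoids at day 7, against 5.90 and 6.53 CPM in controls. Of these 11 genes 3 were tested and none was called for irradiation at either day. For these and the markers below, the share of all genes called was 36.5% at day 4 and 8.65% at day 7. Vim alone held 884 counts over the 8 libraries. Summed immune markers were 10.6 and 12.5 CPM in irradiated organoids at day 4, against 4.43 and 6.28 CPM in controls. Of 8 immune markers 4 were tested, and Csf1r (32 counts in irradiated and 2 in control organoids), Lyz2 (40 in irradiated and 5 in control organoids) and Itgam were higher at day 4, while Adgre1 was at 0 and Cd3e had 2 counts in all 8 libraries. Csf1r and Lyz2, like the endothelial gene Tek, reached the level of the filter in the irradiated libraries of day 4 alone, so that their being higher there is partly built in. The call of Itgam was lost in 7 of the 8 fits that left out a library. The 7 endothelial markers summed to 4.30 and 6.64 CPM in irradiated and 4.00 and 4.75 CPM in control organoids at day 4. Of the 3 tested, Tek was higher and Egfl7 lower, and leaving out replicate 2 of the irradiated or of the control organoids ended the call of Egfl7. Of 9 epithelial markers, 5 were higher and 2 lower at day 4, and 5 were higher and none lower at day 7. Of all genes tested, 20.0% were higher and 16.5% lower at day 4, and 4.70% and 3.95% at day 7. Krt20, a keratin of differentiated villus cells, rose by 3.001 ± 0.17 at day 4 and 1.91 ± 0.17 at day 7 on the log2 scale. Cdx2 fell by 1.03 ± 0.11 at day 4 and was not called at day 7. The part of these changes in the levels of the YAP target genes was not tested.

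For each of the 10 genes, the tested genes most like it were found by the root mean square difference of log2 CPM, centred on each gene's mean, over the 8 libraries, among the 10517 genes whose mean was 5 CPM or more. For F3 these were Cxcl16 (0.249) and Ces1g (0.322), for Ptpn14 Ly6a (0.276) and Samd5 (0.311), and for Lats2 Spsb1 (0.146) and Myzap (0.198). Ajuba lay nearest to Agpat4 (0.247) and Krt7 (0.25), Ctgf to Ano1 (0.379) and Epha4 (0.454), and Tgfb2 to Fabp2 (0.243) and Slc7a9 (0.256). For Cyr61 the nearest was Spry1 (0.146), for Amotl2 Rabac1 (0.1), for Crim1 Fkbp9 (0.0815) and for Nt5e Gpr39 (0.211). None of the 10 genes was nearest to another of them, but Ctgf, Lats2, Tgfb2 and Nt5e were themselves below the level set for the genes compared. A prior count of 2 was added before the log, which flattens the profiles of genes with few counts, such as Tgfb2 and Ctgf.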

How the data were processed

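RNA was measured in 8 libraries of 4 groups. The deposited files give expected counts and TPM for each gene and library, per their headers. An expected count is an estimate that shares ambiguous reads between genes and need not be whole, while the deposited TPM values are scaled for transcript length and library size, which removes depth. The submitters' processing notes name STAR 2.7.3a, RSEM 1.3.3, Trim Galore and FastQC, and the builds mm10 and GRCm39 without a role. The annotation release and strandedness were, in the sources used here, not given. Antisense reads may therefore be mixed in. Symbols came from GENCODE M21, which matched 52083 of 55416 gene IDs.

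Deposited expected counts were rounded, which changed 11.45% of the values. Genes were kept by filterByExpr (minimum count 10, minimum total 15) and compared by the quasi-likelihood F-test of edgeR 4.0.16 (robust, TMM scaling: trimmed mean of M-values) in 1 fit of 4 group means with 4 residual degrees of freedom. The two-sided p was adjusted over 14063 genes by the Benjamini-Hochberg method, with 0.05 as the threshold. The SE of a log2 fold change was its size over the square root of F. Exact binomial intervals at 95% cover counting error only.

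The text names all 10 YAP target genes. From each other list it draws on the 5 genes with the smallest p at day 4 and the 3 at day 7, plus Hippo genes and targets named whatever their values. The 10 genes and the lists were chosen with earlier results of these data known. Alternatives were DESeq2 1.42.0 and its size factors, upper quartile scaling, limma 3.58.1 (voom, or trend on log2 TPM of genes with at least 1 TPM in 2 libraries), no filter or at least 5 CPM in 2 libraries, only the groups compared, a replicate block, no mitochondrial genes, and each library left out. The edgeR fit was also run on simulated data in which few genes changed, all in irradiated organoids of day 4. In the real data 36.5% of genes were called at day 4, so that run does not cover so broad a change.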

Additional observations from a re-analysis of the deposited data

Results flagged for a closer look

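The effect of irradiation differed between the days, by edgeR's test of the day 7 effect less the day 4 effect, for 1 of the 10 YAP target genes and for 13 genes of the other lists, of which the rule on named genes takes in 12. Those 13 were 1 of 9 other YAP targets tested, 2 of 26 Hippo genes, 3 of 15 TGF-beta genes and 1 of 11 adenosine genes. The rest were 2 of 17 immediate-early genes and 4 of 9 epithelial markers, 2 of the 4 with each sign. None was called among 8 tissue factor genes or the 3 mesenchymal, 3 endothelial and 4 immune markers tested. For Ptpn14 the log2 difference was -2.61. Among the other YAP targets, it was -1.05 for Nuak2, where the effect at day 7 was -0.0015. In the Hippo pathway, the upstream kinases Taok1 and Taok3 had -0.39 and -0.49. In the TGF-beta list, the difference was -3.19 for Tgfbr3, -0.71 for Itgav and -1.94 for Thbs1. The nucleoside transporter Slc29a1 had 0.77. Of the immediate-early genes, Egr2 had 1.303 and Klf6 -0.86. The epithelial markers Vil1, Krt20 and Cdx2 had -1.03, -1.09 and 0.90. Of these 13 genes given with a value, 10 had a negative sign and 3 a positive one. Among all genes tested 10.1% differed between the days, 775 with a negative sign and 647 with a positive one. Each of the 13 calls was lost in at least 1 of the 8 fits that left out a library.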

How the results depend on the processing

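Of the 10 YAP target genes, 7 were called at day 4, and 3, 3 and 1 in the limma fits of log2(TPM + 1), log2(TPM + 0.1) and log2(TPM + 1) without a filter. These fits called 18.7%, 18.1% and 4.85% of all genes at day 4, against 36.5% in edgeR. The filtered TPM fits tested 8 of the 10 genes. At day 7, 1 was called, but 3 without a filter on counts (6.71% of all genes), 0 with unfiltered TPM (0.326%) and 3 of 9 with only the groups compared, where 36.3% of all genes were called, and 1 to 3 with a library left out. For the difference between the days, 1 was called (10.1% of all genes), but 3 without a filter (8.07%) and 2 at 5 CPM (14.2%). None was called in the 3 TPM fits, which called 1.24%, 1.00% and 0.00652% of all genes. The number also changed when a library was left out. For day 7 against day 4 in controls, 2 were called (2.72% of all genes), but 3 without a filter (4.00%), 3 with DESeq2 (3.05%) and 1 with voom (1.95%). None was called with TPM, where at most 0.278% of all genes were. In irradiated organoids 1 was called (33.0%), but 2 without a filter (16.8%) and 2 with only the groups compared (29.4%). None was called there with TPM, where the filtered fits called 27.0% and 25.9% of all genes and the unfiltered one 5.11%. Both numbers also changed when a library was left out. The 6 calls among the other YAP targets at day 4 became 2 in each TPM fit. The 4 higher and 4 lower Hippo genes of day 4 became 3 and 0 with only the groups compared, 3 and 2 with DESeq2, 0 and 1 in both filtered TPM fits and 0 and 0 in the unfiltered one, and the 2 of day 7 became 10 with only the groups compared and 0 with TPM. The cause was not tested. Between the edgeR and TPM fits, the split of calls for day 7 against day 4 was 176 higher and 206 lower against 23 and 17 in controls, and 2071 and 2568 against 3158 and 734 in irradiated organoids.

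The sign of these log2 fold changes turned when a library was left out. For the effect at day 4, Cyr61 ran between -0.77 and 0.43 and Amotl2 between -0.24 and 0.61. For the difference between the days, Cyr61 ran between -0.55 and 0.63, Amotl2 between -0.47 and 0.37 and Nt5e between -0.32 and 0.65. For day 7 against day 4 in controls, the ranges were -0.30 to 0.89 for Cyr61, -0.027 to 0.79 for Amotl2, -0.071 to 1.02 for Lats2 and -0.74 to 1.53 for Tgfb2. In irradiated organoids they were -1.43 to 0.66 for Ctgf and -0.78 to 0.40 for Ajuba. In the TPM fits, the day 7 effect turned to 0.019 for Cyr61 and to 0.32 and 0.35 for Crim1, and day 7 against day 4 in irradiated organoids to 0.075 and 0.10 for Ajuba and 0.29 and 0.32 for Crim1. In the fit of log2(TPM + 1) the median of all genes was 0.12 for the day 7 effect and 0.30 between days in irradiated organoids. Less this median, Cyr61 was at -0.099, Ajuba at -0.22 and Crim1 between days at -0.012, with the sign of the edgeR fit, whereas the day 7 effect of Crim1 was 0.20. At 5 CPM the difference between the days for Amotl2 was -0.029. Over the 113 results for single genes, 20 alternatives left 1811 values with the same direction and call, and ended the call in 300, made one in 30 and turned the sign in 29.

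With the replicate block, the YAP target genes called numbered 7 at day 4, 1 at day 7, 1 for the difference between the days, and 2 and 1 between days in controls and irradiated organoids, as without it, and Amotl2 turned to -0.00855 for the difference between the days. All genes called at day 4 numbered 5153 with the block and 5130 without. Correlations of replicate differences between groups ran between -0.035 and 0.058, so no shared effect of replicate number was seen. They cannot show whether libraries with the same number came from the same mouse or culture. Ctgf, Tgfb2 and Nt5e rest on few counts, which limits what their levels can show. With 2 libraries a group, a group left with 1 was assumed to vary like the others. A fit of only the groups compared was not run for the difference between the days, which needs all 4.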
